A study of Mus musculus with 8 samples.

Results

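The genes described are 10 regulators of mRNA decay and deadenylation: the AU-rich element binding genes Zfp36, Zfp36l1 and Zfp36l2, the BTG/TOB genes Btg1, Btg2, Tob1 and Tob2, the CCR4-NOT scaffold Cnot1, and the microRNA effector genes Tnrc6a and Tnrc6b. They were chosen by name from these families, and all 10 were found among 21951 protein-coding genes of the mouse annotation, of which 7055 had at least 1 m6A peak in the deposited lists. Of the 10, 9 had a peak in at least 1 list and Cnot1 had none.

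The data came from MeRIP-Seq, in which RNA fragments carrying N6-methyladenosine (m6A) are pulled down with an antibody (IP) and sequenced beside the RNA before pull-down (input). Bone marrow-derived macrophages (BMDMs) of C57BL/6 mice aged 8 weeks were grown for 7 days with M-CSF at 40 ng/mL. The groups were WT (Mettl3fl/fl Lyz2+/+) and KO (Mettl3fl/fl Lyz2cre/+, labelled Mettl3-/-), so both carried floxed alleles of Mettl3, the catalytic subunit of the m6A methyltransferase, and only KO mice carried Cre. Each genotype had 2 biological replicates with an IP and an input library, 8 libraries in all, and the authors called peaks for each replicate, which gave 4 lists, named by genotype and replicate (WT-1 is replicate 1 of WT). Cre under Lyz2 acts in myeloid cells, granulocytes included, and need not delete the gene in every cell.

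Cells shorten the poly(A) tail of an mRNA before they destroy it, and the CCR4-NOT complex does most of this shortening. ZFP36 proteins bring the complex to AU-rich elements in 3′-UTRs of cytokine mRNAs, BTG and TOB proteins bind its deadenylase subunits, and TNRC6 proteins link Argonaute and its microRNA to it. In macrophages this machinery limits how long inflammatory transcripts last, and m6A is itself a mark that can shorten the life of an mRNA.

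The WT lists held 6159 and 6263 peaks and the KO lists 6378 and 6684, replicate 1 first as in all pairs of values given, with median widths of 478 and 498 bp in WT and 501 and 543 bp in KO. Both KO lists were longer, and their peaks wider, than those of both WT lists, and the share of peaks at a score of 3100 or more, a value that many peaks share near the top of the scale, was 10.3% and 13.5% in WT and 16.2% and 19.5% in KO. The meaning of the score, and of its common value 3100, is not given in the sources used here, so scores were not read as levels of methylation. The lists gave no read counts, so the depth behind a peak is unknown, and a gene without a listed peak was not shown to lack m6A or to lack RNA. Mettl3 had 0 peaks in each of the 4 lists, so the lists do not check its deletion. Of 10 macrophage markers 4 had a peak, against 32.1% of the 21951 protein-coding genes. These were Mertk in all 4 lists, Fcgr1 in both WT lists and neither KO list, Cd14 in WT-2, and Mrc1 in WT-1 and KO-2. The pattern of Fcgr1 was found in 3.84% of all genes with a peak. Adgre1, Csf1r, Itgam, Cd68, Lyz2 and Spi1 had no peak. Of 10 markers of other cells 2 had a peak, against the same 32.1%, namely Siglech and Col1a1, each in KO-1 alone. The part of other cells in the results was not tested.

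The question for each gene was whether its peaks differed between WT and KO macrophages. Peaks on the 10 genes numbered 7 and 11 in the WT lists, on 5 and 6 of the genes, and 8 and 7 in the KO lists, on 4 genes each. In peaks the genotypes overlapped, with the highest value in a WT list and the lowest shared by a WT and a KO list, whereas both WT lists had more of the 10 genes with a peak than both KO lists. Over all genes, those with a peak numbered 4220 and 4378 in WT and 4234 and 4485 in KO, where the genotypes overlapped. Of the 9 genes with a peak, 3 had one in all 4 lists (Tob2, Tnrc6a and Tnrc6b), against 30.4% of the 7055 genes, and 5 had one in 1 list only (Zfp36, Zfp36l1, Zfp36l2, Btg1 and Btg2), against 32.2%. Only Tob1 had peaks in WT alone, meaning both WT lists and no KO list, a pattern found in 3.84% of the 7055 genes. None of the 10 showed the opposite, peaks in KO alone, against 4.88%.

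A second value was the number of exon bases of a gene under peaks. None of the 10 genes, of which 9 had a peak, had more covered bases in both KO lists than in both WT lists. Tob1 alone had fewer. Of the 7055 genes with a peak, 18.9% had more and 8.39% had fewer. Each gene was tested with a two-sided exact permutation test over the 6 labellings of the 4 lists, which cannot give a p below 0.33, so no gene could pass a usual threshold by this test.

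Zfp36 encodes tristetraprolin, which binds AU-rich elements and promotes the decay of Tnf mRNA. Its covered length was 350 bp in KO-2 and 0 bp in the other 3 lists, so only 1 KO list was above 0 (exact permutation p = 1). The peak, at chr7:28378274-28378623 on the minus strand of mm10, lay at the start of exon 2 with 220 bp in the CDS, and its other 130 bp fell outside this transcript and in an exon of another Zfp36 transcript. Its score was at or above that of 35.2% of the KO-2 peaks. It held 3 GGAC, the core of the usual m6A consensus, and all 3 were followed by T.

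Zfp36l1 encodes a relative of tristetraprolin that also recruits the deadenylase. It had 2353 bp covered in WT-2 and 0 bp in the other 3 lists, so the WT lists differed from each other as much as from KO (exact permutation p = 1). The WT-2 peak, at chr12:80107772-80110124, took in 536 bp of the CDS, the stop codon and 99.0% of the 3′-UTR, and was wider than most (at or above 98.8% of WT-2 peaks in width), though its score was at or above that of only 25.7% of them.

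Zfp36l2, another gene of the family, is needed for blood cell formation. It had 770 bp covered in WT-1 and 0 bp in the other 3 lists (exact permutation p = 1). The peak, at chr17:84185065-84185834, reached from 82 bp before the end of the CDS over the stop codon into the 3′-UTR, of which it covered 37.8%. Its score was at or above that of 70.9% of WT-1 peaks. The 3 AU-rich element binding genes thus had 1 peak each, in 3 different lists.

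ZFP36 proteins bind the heptamer TATTTAT (written as DNA), so it was counted on the transcript strand in the genes' own 3′-UTRs. Zfp36, Zfp36l1 and Zfp36l2 each held 3 copies, in 3′-UTRs of 774, 1835 and 1822 nt. Among 3′-UTRs within 20% of the same length, 1.25%, 4.13% and 4.12% held as many, and over all 20721 coding genes with a 3′-UTR 3.56% held 3 or more. In Zfp36l1 all 3 copies lay inside the WT-2 peak. In Zfp36l2 the nearest copy lay 134 nt beyond the WT-1 peak, and in Zfp36 the nearest lay 1291 nt from the KO-2 peak. Btg2, Tob2 and Tnrc6b held 1 copy each, which lay inside the KO-1 peak of Btg2, inside peaks of both WT lists in Tob2 and in no peak in Tnrc6b. As many were common in 3′-UTRs within 20% of the length of theirs, at 43.1% for Btg2, 47.3% for Tob2 and 96.2% for Tnrc6b. Btg1, Tob1, Cnot1 and Tnrc6a held 0 copies. A match to these letters is a description and not a measured binding site.

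Btg1 encodes an antiproliferative protein that binds the CNOT7 and CNOT8 deadenylases and helps to keep lymphocytes quiescent. It had 2168 bp covered in WT-2 and 0 bp in the other 3 lists (exact permutation p = 1). The peak, at chr10:96618276-96620443 on the plus strand, started at the first base of exon 2 and ran 1800 bp into the 3′-UTR. It had a score of 3100, reached or passed by 13.5% of WT-2 peaks, so a top-scoring peak of 1 WT replicate had no listed counterpart in the other.

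Btg2, an immediate early gene and p53 target, encodes the closest relative of BTG1. It had 1152 bp covered in KO-1 and 0 bp in the other 3 lists (exact permutation p = 1). The peak, at chr1:134076467-134077618 on the minus strand, covered 250 bp of the CDS, the stop codon and 41.0% of the 3′-UTR, with a score at or above that of 24.8% of KO-1 peaks. Btg1 and Btg2 thus had peaks over the same part of the mRNA, in a WT list and a KO list.

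The coding sequences of 6 pairs of related genes were aligned after the peaks had been seen, to ask whether GGAC stood at the same place in both. This was so at 0 places in Zfp36 and Zfp36l1, 0 in Zfp36 and Zfp36l2, 3 in Zfp36l1 and Zfp36l2, 1 in Btg1 and Btg2, 0 in Tob1 and Tob2, and 3 in Tnrc6a and Tnrc6b. In the same order, the coding sequences of each pair held 5 and 5, 5 and 9, 5 and 9, 2 and 4, 3 and 2, and 17 and 32 GGAC. In Btg1 and Btg2, whose aligned bases were 68.7% identical, the shared site was the only GGACT under either peak. In Zfp36l1 and Zfp36l2, at 75.6% identity, 1 of the 3 shared sites lay under a peak in both genes. In Tnrc6a and Tnrc6b, at 66.4% identity, all 3 sites aligned by base lay under peaks in both genes. At 1 of them a peak covered the site in all 4 lists in both. At another, GGAC stood at base 1084 of the Tnrc6a CDS and base 1064 of the Tnrc6b CDS. These are different positions in the codon, so that site was shared in the base alignment but not in the reading frame. These windows of 30 nt are shown because related genes carry the same motif at an aligned place under their peaks, with GGAC in capitals, 5′ to 3′ on the transcript strand. They lie at chr10:96618376-96618405 (Btg1, plus strand), chr1:134077574-134077603 (Btg2, minus), chr12:80109627-80109656 (Zfp36l1, minus) and chr17:84185791-84185820 (Zfp36l2, minus), all in the CDS in exon 2, and for the site covered in all 4 lists at chr7:123171847-123171876 (Tnrc6a, plus, exon 6) and chr15:80880968-80880997 (Tnrc6b, plus, exon 8), in mm10.
Btg1: agcccagcggattGGACtgagcagtcagga
Btg2: ggccagccagattGGACtcagccagcccca
Zfp36l1: actcccctaccttGGACaactcaagacgcc
Zfp36l2: agtcccccagcctGGACcctggccgtcgcc
Tnrc6a: aggctggctcgggGGACctattcctgctcc
Tnrc6b: caactggagcagtGGACcccagcctacaac
Of the 30 bases 18 were identical in the Btg pair and in the Zfp36l pair, and 16 in the Tnrc6 pair. The Btg1 window was covered in WT-2 and that of Btg2 in KO-1, while the Zfp36l1 window was covered in WT-2 and that of Zfp36l2 in WT-1.

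Tob1 encodes an antiproliferative protein that bridges the CCR4-NOT deadenylase and the poly(A)-binding protein. It had 1027 bp covered in WT-1, 909 bp in WT-2 and 0 bp in both KO lists. Both WT lists were above both KO lists, with no overlap, and the exact permutation p of 0.33 was the smallest that 2 lists against 2 can give. The peaks lay at chr11:94213703-94214729 in WT-1 and chr11:94213512-94214420 in WT-2, on the plus strand in exon 2, and shared 718 bp with 3 GGAC and 0 GGACT. The WT-1 peak ended 1 bp past the CDS, whereas the WT-2 peak began 128 bp before the start codon. Both scores were low in their lists, at or above those of 8.17% and 26.4% of peaks, and with only the 50% of peaks of highest score in each list Tob1 had no peak and no difference.

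Tob2, the paralog of Tob1, had peaks in all 4 lists, with 1397 and 1084 bp covered in WT and 1358 and 1723 bp in KO. KO-2 was the highest and WT-2 the lowest, but WT-1 exceeded KO-1, so the genotypes overlapped (exact permutation p = 0.667). With only the 50% of peaks of highest score the overlap ended, and Tob2 had more covered bases in both KO lists than in both WT lists, as did 15.8% of the 4460 genes with a peak under that setting. The peaks formed 3 regions, a region being peaks of any list that overlap on the gene. The first began at the 5′ edge of exon 2 and was present in all 4 lists, which shared 664 bp at chr15:81851209-81851872 over the start codon. Its scores were 1170 and 2981 in WT and 3100 in KO-1, and the single KO-2 peak, which extended over the whole CDS to 1414 bp, scored 2207.

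Other Tob2 peaks were listed in 1 genotype only. A region of the 3′-UTR at chr15:81849545-81850276 had a peak in WT alone (732 and 419 bp), and with the Tob1 region it made 2 of the 14 regions on the 10 genes with that pattern, against 3.34% of 11972 regions on all genes. A region of the 5′-UTR in exon 1, at chr15:81858018-81858326, had a peak in KO alone, of 309 bp at the same coordinates in each list, 1 of 14 regions against 6.11%. Near the stop codon, both KO lists also covered chr15:81850459-81850843, as a peak of its own in KO-1 and as part of the long peak in KO-2, and neither WT list did. The WT 3′-UTR peaks ranked low, at or above 8.67% and 12.1% of their lists in score, and the KO 5′-UTR peaks at or above 9.74% and 38.2%. With only the 50% of peaks of highest score in each list, none of these WT 3′-UTR and KO 5′-UTR peaks was kept, so both regions lost their pattern. The KO peaks over the stretch near the stop codon were kept, with scores at or above those of 79.6% of KO-1 and 74.6% of KO-2 peaks. That stretch was part of the region present in all 4 lists. The only GGACT under a Tob2 peak lay in the stretch near the stop codon covered in KO alone, in the 3′-UTR at chr15:81850536-81850565 on the minus strand, and is shown for that reason with GGAC in capitals.
Tob2: agcaacaagtgttGGACtcagcccctgact

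**Figure D1:**
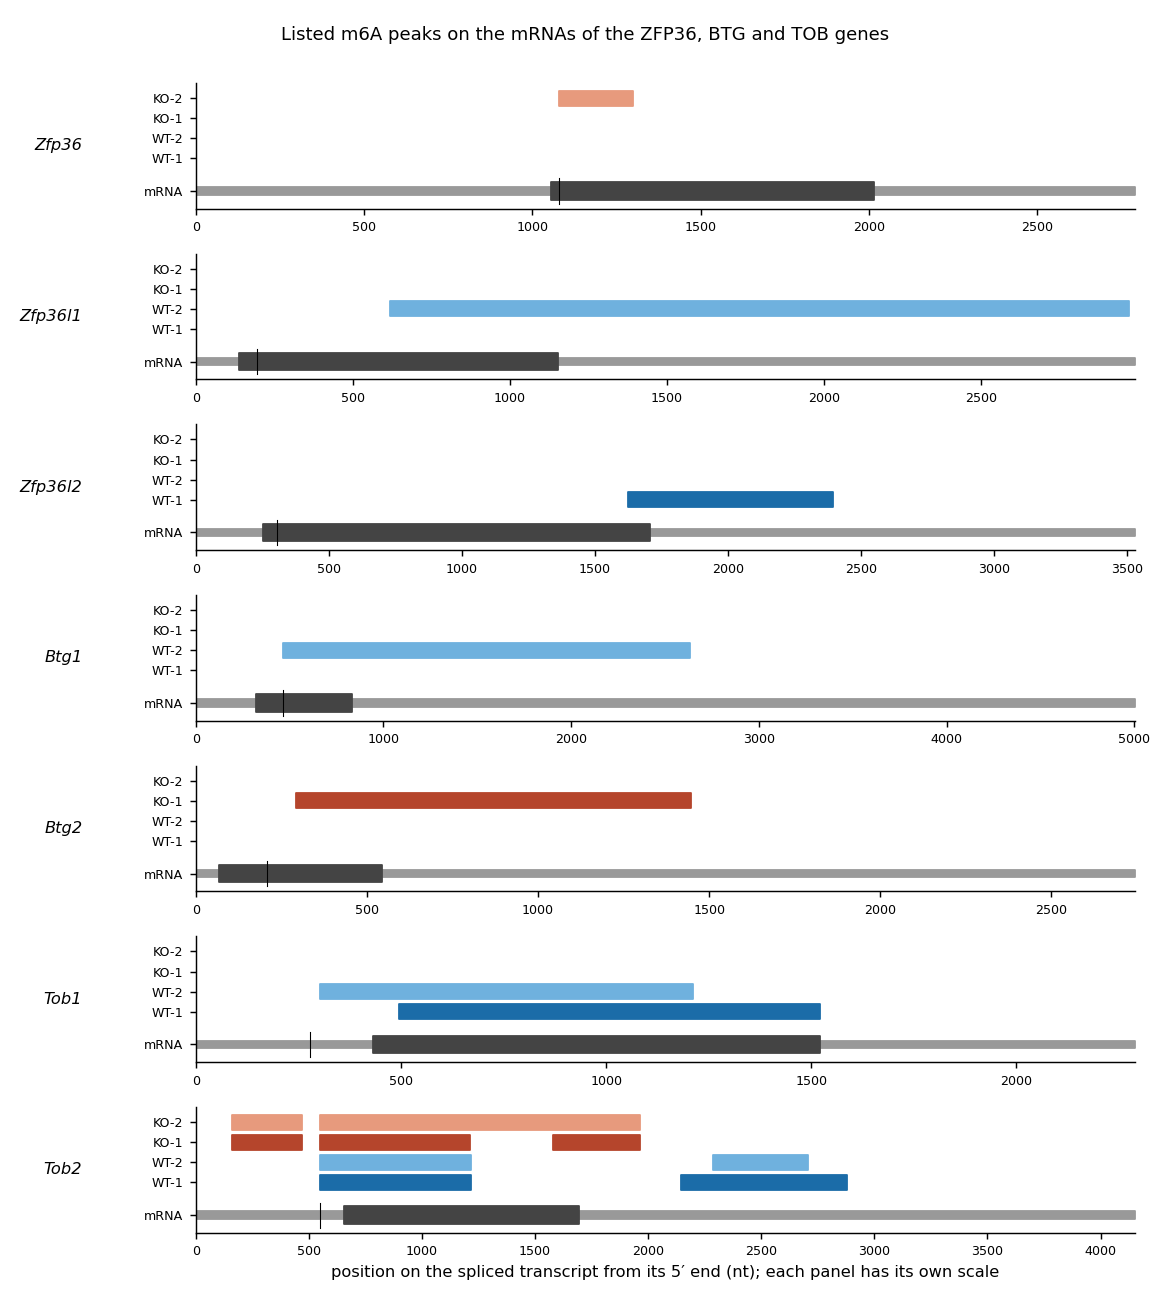
Peaks of the 4 lists drawn on the spliced transcript of each ZFP36, BTG and TOB gene, with position in nt from the 5′ end on the horizontal axis. Thick dark bars are the CDS, thin grey bars the UTRs, black ticks exon joins, blue bars WT peaks and red bars KO peaks. Tob2 has peaks in all 4 lists, Tob1 in both WT lists, and each of the other 5 genes in 1 list.

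Cnot1 encodes the scaffold on which the CCR4-NOT subunits assemble. It had 0 bp covered in each of the 4 lists, although its transcript of 8390 nt in 49 exons held 33 GGAC, or 3.93 per kb, close to the median of 4.0 per kb over coding genes. The longest of its exons measured 1035 nt, against 1710 to 11997 nt in the other 9 genes. The median longest exon was 1796 nt in genes with a peak in any list and 962 nt in genes without one. Exon lengths were examined after the absence of peaks on Cnot1 had been seen, and their part in it was not tested.

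Tnrc6a encodes a GW182 protein, which binds Argonaute and recruits CCR4-NOT to microRNA targets. It had 2583 and 1679 bp covered in WT and 2214 and 2583 bp in KO. WT-2 was the lowest, and WT-1 equalled KO-2, so the genotypes overlapped (exact permutation p = 1). In WT-1 and KO-2 a single peak covered exon 6 from edge to edge, at chr7:123169536-123172118 on the plus strand, 2583 bp of CDS with 10 GGAC. In KO-1 the exon held 2 peaks of 623 and 1591 bp, and in WT-2 it held 3 narrow peaks of 311, 402 and 378 bp, so the count of peaks there was highest where the covered length was lowest. The peaks of WT-2 on the exon scored 731, 355 and 194, and those of the other 3 lists 3100. Only WT-2 had a further peak, of 588 bp over the stop codon in exon 24 at chr7:123192579-123193166.

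Tnrc6b, a paralog with the same role, had the longest covered lengths of the 10 genes: 3200 and 2634 bp in WT and 3153 and 3674 bp in KO. KO-2 was the highest and WT-2 the lowest, with WT-1 above KO-1, so the genotypes overlapped (exact permutation p = 0.667). The long exon 8 of 2340 bp was covered to 91.5% in WT-2 and whole in the other 3 lists, within chr15:80878867-80881281, with a score of 3100 in all 4 lists. A region over the stop codon at chr15:80929248-80930176 also had a peak in all 4 lists, 785 and 439 bp wide in WT and 760 and 929 bp wide in KO, and all 4 shared 439 bp with 0 GGAC. A peak of 354 bp further into the 3′-UTR of 11609 nt was listed in KO-2 alone.

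Each gene thus had a region on a long coding exon with a peak in all 4 lists, and Tnrc6b had another over the stop codon. The GGACT sites that a peak covered in all 4 lists numbered 1 in Tnrc6a and 5 in Tnrc6b, and none of the other 8 genes had one. These sites are shown in windows of 30 nt of the CDS, plus strand, mm10, with GGAC in capitals, because they were under a peak in every WT and KO list. They lie at chr7:123169792-123169821 in Tnrc6a and, in order, at chr15:80879234-80879263, chr15:80879349-80879378, chr15:80879758-80879787, chr15:80880225-80880254 and chr15:80880621-80880650 in Tnrc6b.
Tnrc6a: tcggaacagcactGGACttggttctcaaag
Tnrc6b: agatagcaacaatGGACtaggaaactggag
Tnrc6b: ttggtccaagaagGGACttctagaaaaggg
Tnrc6b: gaaaagacagagaGGACtcctggaaaggag
Tnrc6b: actcttttgagccGGACtgatttggaccct
Tnrc6b: cccaaccaaggatGGACttctgggaagaat
A listed peak in KO macrophages over these sites gives no measure of how much m6A remained. The peaks on Tnrc6b exon 8 covered 91.5% of it in WT-2 and all of it in the other lists. They take in the GGACT sites there by their width and do not place m6A at any 1 of them.

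**Figure D2:**
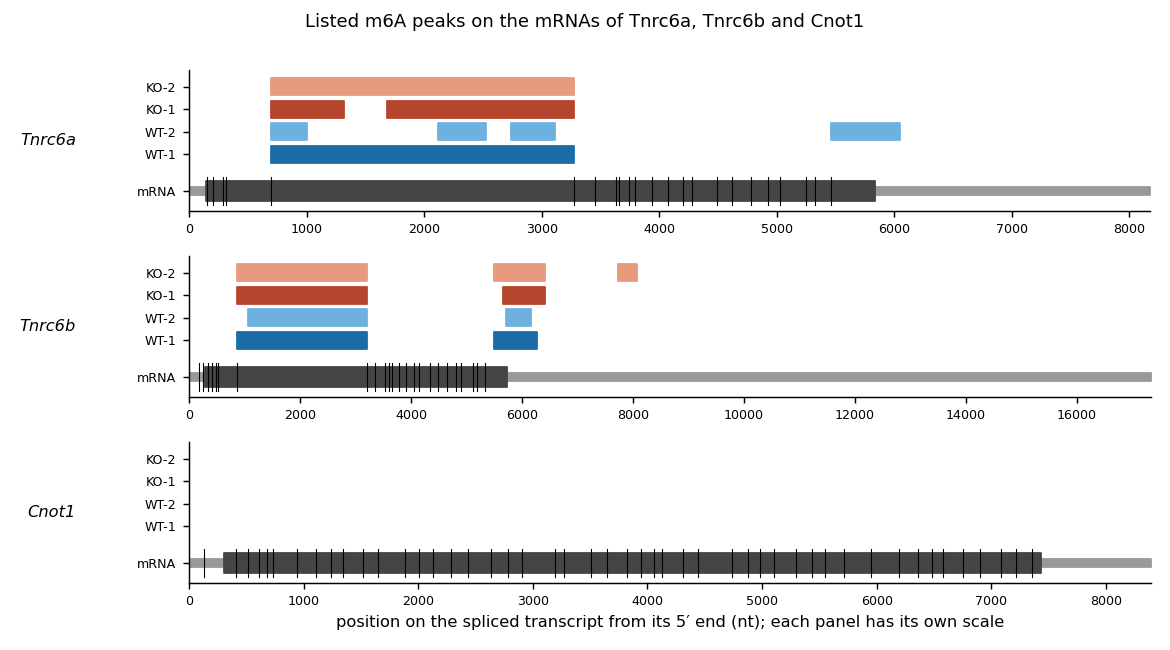
Peaks of the 4 lists drawn on the spliced transcripts of Tnrc6a, Tnrc6b and Cnot1, with position in nt from the 5′ end on the horizontal axis. Thick dark bars are the CDS, thin grey bars the UTRs, black ticks exon joins, blue bars WT peaks and red bars KO peaks. Peaks of all 4 lists lie on exon 6 of Tnrc6a and exon 8 of Tnrc6b, and Cnot1 has none.

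The 33 peaks on the 10 genes formed 14 regions, of which 7 were present in 1 list, 3 in 2 lists, 0 in 3 lists and 4 in all 4 lists. The 4 shared regions, 1 each on Tob2 and Tnrc6a and 2 on Tnrc6b, made 28.6% of the regions, against 18.1% of the 11972 regions on all genes. The order turned where each list had to cover 50% of the region, which left 1 of the 14, against 12.8% of all regions. By midpoint, 2 of the 33 peaks lay in the 5′-UTR (6.06%), 19 in the CDS (57.6%) and 12 in the 3′-UTR (36.4%), while the 24753 assigned peaks of all genes gave 3.25%, 46.0% and 40.9%, with 9.86% outside the chosen transcript. GGAC was present in 31 of the 33 peaks (93.9%), against 87.6% of all assigned peaks and a mean of 91.3% among listed peaks within 20% of the same width. The order turned for GGACT, in 51.5% against 54.7% of all assigned peaks, and for GGAC in the central 200 bp of a peak, in 45.5% against 61.7%. Peaks on the 10 genes were wide, with a median of 760 bp against 507 bp, and held 4.44 GGAC per kb against 4.73 in all peaks. A score of 3100 or more was reached by 11 of the 33 (33.3%), against 15.0% of all listed peaks, and these 11 lay on Btg1, Tob2, Tnrc6a and Tnrc6b. These shares are descriptions of 10 chosen genes, and several peaks cover the same stretch in different lists.

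Other genes of the pathway were taken from 5 lists with 71 genes in all. Of these, 49 had a peak in any list, against 32.1% of the 21951 protein-coding genes. That share was not matched for transcript length or expression. The median transcript measured 3495 nt in genes with a peak in any list and 2102 nt in genes without one. The part of length or expression in these shares was not tested. Of the 49, every list held a peak for 16 and a single list for 15, near the shares of 30.4% and 32.2% over all genes with a peak. Peaks in WT alone were found on 4 and in KO alone on 3, against 3.84% and 4.88%, and more bases were covered in both KO lists for 8 and fewer for 7, against 18.9% and 8.39%. Among genes that bind AU-rich or stem-loop elements, 11 of 12 had a peak, against 32.1% of all genes, and regions in all 4 lists were found on Zc3h12c, a relative of the nuclease Regnase-1 (2 regions), and on Tial1 (1 region).

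Among the CCR4-NOT, BTG and poly(A) nuclease genes, 8 of 16 had a peak, against 32.1% of all genes, and Pan3 was the only 1 with a region in all 4 lists. The CCR4-NOT subunit gene Cnot2 had 838 and 835 bp covered in WT-1 and WT-2 and 0 bp in both KO lists. Another subunit gene, Cnot10, showed the opposite order, with 0 bp in both WT lists and 379 and 1097 bp in KO-1 and KO-2. Each was 1 of the 8 genes with a peak, against 3.84% and 4.88% of all genes with a peak.

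The list of microRNA genes, which left out Tnrc6a and Tnrc6b, held effector genes and also genes of microRNA production such as Dgcr8. Of its genes 10 of 11 had a peak, against 32.1% of all genes. In all 4 lists 5 of the 10 had one, Dgcr8 among them, against 30.4% of genes with a peak. These counts cover both kinds of gene. Ago2, Ago4 and Dgcr8 each had 1 region in all 4 lists. Ago1, an Argonaute, had 634 and 1627 bp covered in WT-1 and WT-2 and 0 bp in both KO lists. It was 1 of the 10 genes with a peak, against 3.84% of all genes with a peak. Tnrc6c, the family's remaining paralog, named after its values were seen, had 2654 and 2828 bp covered in WT and 2956 and 4160 bp in KO, so all 3 TNRC6 genes had peaks in every list. Both KO lists of Tnrc6c were above both WT lists. Of the 10 microRNA genes with a peak, 2 had more covered bases in both KO lists, Tnrc6c among them, and 2 had fewer, Ago1 among them. Over all genes with a peak the shares were 18.9% and 8.39%.

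Among decapping and 5′-to-3′ decay genes 6 of 12 had a peak, against 32.1% of all genes, with regions in all 4 lists on the helicase gene Ddx6 (2 regions) and the decapping enzyme gene Dcp2 (1 region). The decapping activator gene Dcp1a had 730 and 307 bp covered in the WT lists, by peaks that did not overlap each other, and 0 bp in the KO lists. Edc3, an enhancer of decapping, had 0 bp in the WT lists and 605 and 832 bp in the KO lists. Each was 1 of 6, against the same 3.84% and 4.88%.

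Of the exosome and nonsense-mediated decay genes 14 of 20 had a peak, against 32.1% of all genes, and Upf2 (2 regions), Smg1 and Smg6 (1 region each) had regions in all 4 lists. The exosome subunit gene Exosc3 had 359 and 340 bp covered in the WT lists, again by peaks that did not overlap, and 0 bp in the KO lists. Smg5 had 0 bp in the WT lists and 687 bp in each KO list. Exosc3 and Smg5 were each 1 of the 14 genes with a peak, against 3.84% and 4.88% of all genes with a peak. The 7 pathway genes with peaks in 1 genotype alone were named for that pattern, so it was not tested.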

How the data were processed

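The authors trimmed reads with cutadapt 1.9.3 and aligned them with HISAT2 2.0.4 to mm10, per the submitters' processing notes, and deposited 1 peak list per IP with a score for each peak. Peak names carry the form that MACS gives, and its version and settings are not given in the sources used here. BED starts were converted to 1-based positions. Peaks were assigned to the protein-coding GENCODE gene with the largest exon overlap on the same strand (at least 1 bp), which placed 97.3% of peaks in each WT list and 97.0% in each KO list. Positions refer to each gene's transcript with the longest coding sequence. Calls were tested on simulated data.

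The 10 genes and the pathway and marker lists were chosen with earlier results of these data known. All 10 genes were named, and of the pathway lists the genes with peaks in both lists of 1 genotype and neither of the other, and up to 3 genes per list with most regions in all 4 lists, ties by symbol; a gene with no such region was not named. The alignments of related genes, the longest exons and the comparison of GGAC by peak width were added after the data had been seen. Alternatives were the 50% of peaks of highest score, an equal number of top peaks, assignment by midpoint, leaving out each list, the replicate block, other rules for regions, positions and motifs. For single genes these were added after the data had been seen. Python 3.11.15, numpy 2.4.6, pysam 0.24.0, Biopython 1.88 and matplotlib 3.10.9 were used.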

Additional observations from a re-analysis of the deposited data

How the results depend on the processing

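With groups of 2 lists no difference could pass the exact permutation test, and without read counts the effect of depth on presence could not be measured. Of 88 alternatives for the counts and shares over the 10 genes, 60 stayed within 1.5 times the count or 1 SD between replicates, 27 moved and 1 turned its direction. The count of genes with a peak in all 4 lists was 3 with the 50% of peaks of highest score too, against 23.7% of the 4460 genes with a peak there. That setting left a peak in any list on 5 genes, 0 with peaks in WT alone, 1 with more covered bases in KO (Tob2) and 0 with fewer, against 3.14%, 15.8% and 6.41% of 4460 genes. It took the difference in peaks per list to 0 and put 0% of peaks in the 5′-UTR and 65.0% in the CDS. The cause was not tested.

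Leaving out each list in turn gave 1 to 3 genes with peaks in WT alone, 0 to 1 in KO alone, 0 to 3 with more and 1 to 3 with fewer covered bases in KO, where 1 list in a group makes a call easier to meet: over all genes with a peak the shares were 7.18% to 15.5%, 10.9% to 13.4%, 29.3% to 41.6% and 12.9% to 30.4%. It gave 3.85% to 9.09% of peaks in the 5′-UTR. The difference in peaks per list on the 10 genes, KO minus WT mean, was -1.5, ranged from -3.5 to 0.5 and turned its direction, to 0.5, without WT replicate 2, which had 11 of the 33 peaks. Requiring each list to cover 50% of a region left 1 of 4 shared regions on the 10 genes, and 12.8% of all regions. By bases in place of midpoints the shares were 3.25% 5′-UTR, 68.4% CDS and 27.4% 3′-UTR, against 2.68%, 50.2% and 38.4% for all assigned peaks. GGACT was present in 51.5% of peaks (54.7% of all), and GGAC in the central 200 bp in 45.5% (61.7% of all).

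With the replicate block, each KO list against the WT list of the same number, 4 genes counted as WT alone and 2 as KO alone, since a peak in 1 pair was enough under that rule, which 28.5% and 29.2% of all genes with a peak met; more covered bases stayed at 0 genes and fewer at 1, against 22.4% and 10.7%, and the difference in peaks stayed at -1.5. The sources do not say that equal numbers mark shared mice or days, and over 7055 genes the WT and KO differences between replicates 1 and 2 had a correlation of -0.05, across genes that are not independent. The block was not run for peaks in all 4 lists, peaks in any list or shared regions, which compare no genotypes. Of 70 alternatives for covered bases of single genes, chosen after seeing the data, 67 stayed within 1 SD, which is wide in groups of 2, and 3 moved further, all with the 50% of peaks of highest score: Tob1 from -968 to 0 bp, Tob2 from 300 to 566.5 bp and Tnrc6a from 267.5 to 951.5 bp. Leaving out each list in turn gave -184.5 to 719.5 bp for Tnrc6a, which turned its direction without WT replicate 2, 117.5 to 482.5 bp for Tob2 and 213.5 to 779.5 bp for Tnrc6b. The differences of Zfp36, Zfp36l1, Zfp36l2, Btg1 and Btg2 were 0 bp without the list that held their peak, and those of Zfp36, Zfp36l1 and Btg2 also with the 50% of highest score.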
